A study of Homo sapiens with 4 samples.

Results

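The repertoire of endogenous microRNAs (miRNAs) in HCT116 cells, a long-established human line derived from a colorectal carcinoma, was read from 1 small RNA library. By its label, the library comes from cells transfected with the empty pCDNA3 plasmid, which carries no pri-miRNA. It nevertheless held 41 reads under names of plasmid-borne variants. Reads of the unchanged forms of plasmid-borne miRNAs, such as miR-142, miR-200b, miR-30a, miR-30d, miR-16 and let-7d, could not be told apart from endogenous ones. Members were all names in the read table that start with hsa-, the prefix of human miRNAs, and reads were added over every 5p start and 3p end listed for a name. This gave 1630 of the 1644 names of the whole table. The other 14 names are sequence variants carried by plasmids. The series, made to study how mismatches in the upper stem of pri-miRNAs change DROSHA cleavage, holds 4 libraries, 1 for each plasmid mixture, and the others were not used here. Total RNA was the starting material. With 1 library, nothing measures the spread between cultures or transfections. No test was made. Intervals are Wilson intervals at 95%. For shares of reads they cover counting error only, and reads of 1 molecule count separately because the reads carry no molecular identifiers. For shares of miRNAs or pairs they treat each name or pair as a separate draw, although some names hold the same counts.

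A pri-miRNA folds into a hairpin that DROSHA cuts in the nucleus and DICER cuts again in the cytoplasm. One arm of the resulting duplex is usually kept by an Argonaute protein and guides it to target mRNAs, while the other arm is degraded. DROSHA sets the 5p start of the 5p arm and the 3p end of the 3p arm, and DICER sets the other pair of ends. The start matters most for targeting, because the bases that follow it, from base 2 to base 8, form the seed that pairs with the target. The 3p end can also be trimmed by exonucleases or extended by terminal transferases after cleavage.

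The mature sequences of the most abundant miRNAs are shown because the account of reads, starts and ends turns on them. RefSeq (GRCh38.p14) gave a sequence for 17 of the 20 names with the most reads. They are written 5′ to 3′ with the seed in capitals, and names that share a seed stand together.
miR-21-5p: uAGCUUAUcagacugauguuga
miR-191-5p: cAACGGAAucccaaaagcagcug
miR-10a-5p: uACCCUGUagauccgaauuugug
miR-100-5p: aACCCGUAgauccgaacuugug
miR-182-5p: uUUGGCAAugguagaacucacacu
miR-222-3p: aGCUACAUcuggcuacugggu
miR-221-3p: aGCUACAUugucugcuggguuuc
miR-25-3p: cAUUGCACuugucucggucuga
miR-92b-3p: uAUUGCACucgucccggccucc
miR-98-5p: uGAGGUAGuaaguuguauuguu
let-7g-5p: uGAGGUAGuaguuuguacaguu
miR-27b-3p: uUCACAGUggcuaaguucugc
miR-148a-3p: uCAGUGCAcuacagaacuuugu
miR-31-5p: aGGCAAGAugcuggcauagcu
miR-22-3p: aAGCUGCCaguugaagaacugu
miR-16-5p: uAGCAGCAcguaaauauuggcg
miR-30e-5p: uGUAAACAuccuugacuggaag

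The library held 14544475 reads of endogenous miRNAs. Of the 1630 names, 1335 had a read, 809 had at least 10 reads, 397 had at least 100, 182 had at least 1000, 87 had at least 10000 and 27 had at least 100000. The other 295 names were at 0, which at this depth allows up to 3 reads. Names with 1 to 9 reads were common, 526 in all, and together they held 1916 reads or 0.0132% of the total. The median over names with a read was 18 reads.

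Before the levels are read, 3 features of the counts limit them. First, the same counts often stand under names on opposite strands. Of 42 pairs of names that overlap on opposite strands, 31 had reads under both names. An exception was miR-122-5p, with 14 reads beside 0 for miR-3591-3p, and the remaining pairs had no read. At the 223 isoforms that such pairs share in position, the counts under both names were equal in all 223. How strand was handled in counting was not tested. The pairs with the most reads were miR-103a-3p with miR-103b (19444 reads under each name), miR-423-3p with miR-3184-5p (18184 and 18711), miR-203a-3p with miR-203b-5p (15659 each) and miR-423-5p with miR-3184-3p (14186 each). The later name of each pair added 71417 reads, 0.491% of the total, over 28 names.

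Second, only unambiguous alignments were kept, which bears on names whose sequence lies at several places. The annotated sequence of 1347 names lay at 1 place on the 24 chromosomes of hg38, and these names held 12450319 reads. A further 113 names lay at 2 or more places, and 84 of them had 445140 reads in all. At least 100 reads were found for 23.01% of the names at several places and 24.35% of those at 1 place. The annotated form was more often missing in the former. Of the 26 names at several places with at least 100 reads, 12 had no read with both annotated ends, against 15 of 328 names at 1 place. Some miRNAs at several places that are known to be widely expressed, picked after their values were seen, had low counts: miR-24-3p had 20 reads, miR-26a-5p 59, miR-30c-5p 8 and miR-29b-3p 95. let-7a-5p had 5823 reads, of which 18 had both annotated ends. In contrast, miR-16-5p, at 2 places, had 206810 of its 226727 reads at both annotated ends. The counts of names at several places may miss reads. Whether they do was not tested, and the places are said where such names are used. Length set the last limit, as reads were kept only between 18 and 26 nt, so that a long miRNA can show only a short extension.

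Reads were concentrated in few miRNAs. miR-21-5p, which represses tumour suppressors such as PDCD4, alone had 2864394 reads, 19.7% of the total (19.67 to 19.71). It was followed by miR-191-5p with 1991607 reads (13.7%). The next was miR-10a-5p, encoded in the HOXB cluster, with 991259 reads (6.82%). After it came miR-182-5p with 622484 reads (4.28%) and miR-10b-5p, the HOXD counterpart of miR-10a, with 546401 (3.76%). The opposite arm of the leading miRNA, miR-21-3p, ranked 6 with 520495 reads, just above miR-100-5p with 518914, and the intervals of both shares overlapped. The first 10 were completed by miR-27b-3p with 427663 reads, miR-31-5p with 319375 and miR-222-3p with 290306.

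The 10 most abundant miRNAs held 62.5% of all reads (62.49 to 62.54), the first 20 held 77.7%, the first 50 held 93.1% and the first 100 held 97.9%. Counted the other way, 6 miRNAs reached 50% of the reads, 39 reached 90% and 144 reached 99%. miR-21-5p had 9.87 times the reads of the miRNA at rank 10 and 413 times those of the miRNA at rank 100. Ranks 11 to 20 lay close together, from 282856 reads of miR-22-3p through miR-148a-3p (268270), miR-25-3p (252065), miR-221-3p (244288), miR-16-5p (226727), miR-98-5p (214626), miR-30e-5p (187414), miR-92b-3p (184010) and miR-30d-5p (176859) to 168496 reads of let-7g-5p. Neighbours in that order differed by more than their counting error, but with 1 library it is not known whether the order would hold in another. The count of miR-16-5p is uncertain, because its sequence lies at 2 places and may miss reads. The study's methods describe a pri-mir-16-1 plasmid co-transfected with the pri-miRNA plasmids for qPCR, whereas this library is labelled with the empty plasmid. The part of carried-over plasmid reads in the count was not tested.

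Positions are given on GRCh38 with the annotation of GENCODE release 44. miR-21-5p lies at chr17:59841273-59841294 on the plus strand, within an exon of a transcript of VMP1. miR-191-5p lies at chr3:49020672-49020694 on the minus strand in an intron of DALRD3, and miR-10a-5p at chr17:48579904-48579926 on the minus strand in an intron of HOXB3. miR-182-5p (chr7:129770447-129770470, minus) and miR-148a-3p (chr7:25949922-25949943, minus) lie in introns of unnamed lncRNAs, miR-100-5p (chr11:122152275-122152296, minus) in an intron of MIR100HG and miR-31-5p (chr9:21512158-21512178, minus) in an intron of MIR31HG. miR-27b-3p (chr9:95085505-95085525, plus) lies in an intron of AOPEP. miR-222-3p (chrX:45747036-45747056, minus) is in an intron and miR-221-3p (chrX:45746180-45746202, minus) in an exon of MIR222HG. miR-22-3p (chr17:1713914-1713935, minus) is exonic in MIR22HG, and miR-92b-3p (chr1:155195237-155195258, plus) is exonic in THBS3-AS1. The introns of protein-coding genes on the same strand also held miR-25-3p (MCM7, chr7:100093571-100093592, minus), miR-98-5p (HUWE1, chrX:53556299-53556320, minus), miR-30e-5p (NFYC, chr1:40754371-40754392, plus) and let-7g-5p (WDR82, chr3:52268336-52268357, minus). miR-16-5p has 2 places, in an intron of DLEU2 (chr13:50049027-50049048, minus) and in an intron of SMC4 (chr3:160404754-160404775, plus).

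Over the 1466 names that belong to 1 hairpin in the reference, 42.1% of the reads came from hairpins in introns of protein-coding genes, 27.0% from exons of such genes, 18.7% from lncRNA introns, 10.6% from lncRNA exons and 1.54% from outside both kinds of gene. Each hairpin was put in 1 class, with protein-coding genes before lncRNAs and an exon of any transcript before an intron. miR-10a-5p, for example, lies in both HOXB3 and an unnamed lncRNA and was counted under protein-coding introns. The shares also follow single miRNAs. miR-21-5p alone made 77.5% of the reads from protein-coding exons, and miR-191-5p made 34.6% of those from protein-coding introns.

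Hairpins that lie within 10000 bp of each other on a strand often come from 1 primary transcript, yet their reads differed widely. Of the 13 such clusters with at least 100000 reads, the most even was miR-222 with miR-221, which repress the cell cycle inhibitor p27 and had 290841 and 255551 reads per hairpin. miR-141 and miR-200c, which repress the ZEB factors, were similarly close with 168050 and 119659 reads. In contrast, miR-191 had 1992068 reads and its neighbour miR-425 had 25528. The cluster of miR-182, miR-183 and miR-96 had 622510, 142017 and 2023 reads in that order. In the cluster within MCM7, miR-25 had 252470 reads, miR-93 had 109137 and miR-106b had 18412.

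The cluster of miR-17 and miR-92a (MIR17HG), known as an oncogenic cluster induced by MYC, ranged from 81384 reads for miR-20a and 55244 for miR-17 to 7221 for miR-19a and 6623 for miR-18a. Its miR-19b-3p and miR-92a-3p, which also come from other hairpins, were left out of that comparison. miR-99b, let-7e and miR-125a had 125144, 56525 and 36216 reads. On chromosome 1, miR-200b, miR-200a and miR-429 had 59951, 26835 and 15524. Clusters that hold a let-7a, let-7f, miR-24 or miR-30c hairpin could not be compared in full, because the main arm of those hairpins is at several places.

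**Figure D1:**
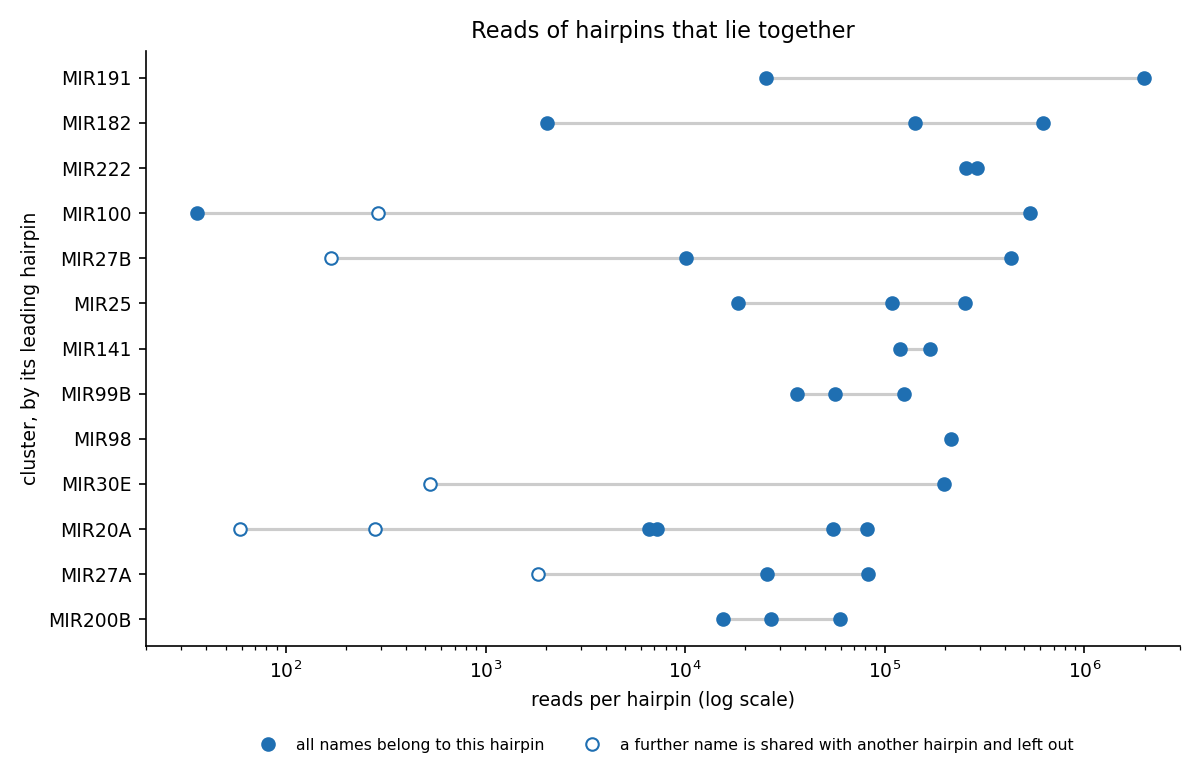
Reads of each hairpin on a log scale, for the 13 clusters of hairpins within 10000 bp with at least 100000 reads, 1 row per cluster named by its leading hairpin. Filled points are hairpins whose names all belong to them. Open points leave out a name shared with another hairpin, and the MIR98 row shows 1 hairpin because let-7f-5p is shared. The points of MIR222 nearly touch, whereas those of MIR191 lie far apart.

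Families that share a seed can act on the same targets, so reads were also added by seed. Over the 12895459 reads with a reference sequence, the 10 seeds with the most reads held 75.6%, and the 10 leading miRNAs with a sequence held 66.5% of the same reads. The seed of miR-21-5p came first with 2864480 reads, of which miR-590-5p gave only the remainder. The let-7 seed ranked after those of miR-191-5p and miR-10a-5p, with 746426 reads over 9 names. Its reads were spread over miR-98-5p (214626), let-7g-5p (168496), let-7i-5p (144910), let-7b-5p (72230), let-7d-5p (57195), let-7e-5p (56312) and let-7f-5p (26588), with let-7a-5p at 5823 and let-7c-5p at 246. Of these, let-7a-5p and let-7f-5p are at several places and may miss reads.

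Families were also listed by name. The group of miR-10, miR-99 and miR-100 was the largest of the 16 families listed by name, with 2179936 reads (14.99%). miR-10a-5p made 45.5% of it, miR-10b-5p and miR-100-5p followed, and miR-99b-5p gave 123317 reads and miR-99a-5p 45. As their sequences above show, miR-10a-5p and miR-100-5p differ in the seed. Some other families were more uneven. miR-27b-3p made 84.2% of the miR-27 family, miR-148a-3p 83.0% of the miR-148 and miR-152 family and miR-16-5p 92.8% of the family of miR-15, miR-16 and miR-195, with the same uncertainty about miR-16-5p. The family of miR-17, miR-20, miR-93 and miR-106, whose members lie in several clusters, had 254637 reads. Its members ranged from miR-93-5p (108640), miR-20a-5p (81307) and miR-17-5p (53677) to miR-106a-5p (356) and miR-20b-5p (1). The latter pair come from the paralogous cluster on the X chromosome, as does miR-363-3p, which had 2 reads in the family of miR-25 and miR-92 beside 252065 for miR-25-3p. In the miR-30 family, miR-30e-5p and miR-30d-5p had 187414 and 176859 reads, miR-30b-5p 23794 and miR-30a-5p 3365.

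Reads were also added over lists of miRNAs typical of tissues. The lists were chosen with earlier results of these data known, so they describe the library and are not a check of the label of the cells. All 7 epithelial markers had reads, 383804 in all (2.64%), from 146 for miR-205-5p to 152384 for miR-141-3p, and 6 of them had at least 1000. miR-200b-3p gave 59087 of these reads, and the study also expressed pri-mir-200b from plasmids in HCT116 cells. Of the 6 markers of intestine and colon, 4 had at least 1000 reads: miR-10a-5p, miR-31-5p, miR-192-5p (40180) and miR-196b-5p (9639). miR-194-5p, at several places, had 425 and miR-215-5p had 468. Of the 1361346 reads of this list, miR-10a-5p gave 991259 and miR-31-5p 319375. The 8 markers of blood and immune cells had 630 reads in all, from 0 for miR-155-5p to 329 for miR-142-5p. The arms of miR-142, which is among the plasmid-borne miRNAs of the other mixtures, gave 443 of them. The stromal list had 7468 reads over 6 markers, nearly all of them from miR-126-3p (3190), miR-143-3p (3061) and miR-145-5p (1214), while miR-199a-3p and miR-199a-5p, both at several places, were at 0 or not listed. The list holds only the 3p arm of miR-126, an endothelial miRNA encoded in EGFL7, and the other arm, miR-126-5p, ranked 34 with 66576 reads, 95.4% of the pair. Embryonic stem cell markers had 13 reads over 7 names, and the liver marker miR-122-5p had 14. The islet list had 14469 reads over 4 names, of which miR-375-3p, which is also a marker of gut epithelium, gave 13116. The 5 muscle and 4 neural markers had 30 and 369 reads. Of each list 2 are at several places and may miss reads, and miR-206, miR-208a-3p and miR-137-3p, at 1 place each, are not listed in the table. The part of other cell types in these values was not tested.

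Arm choice was read from pairs of names that differ only in the arm, after hairpin numbers were removed. 5p names held 72.6% of all reads and 3p names 26.3%, and the others have no arm in their name. miR-21-5p alone made 27.1% of the 5p reads. Of the 20 most abundant miRNAs, 12 were 5p arms and 8 were 3p arms. By pairs the arms were closer. Of 236 pairs with at least 100 reads, the 5p arm was ahead in 135, or 57.2% (50.8 to 63.4), and the 3p arm in 100. The last, miR-486, had 122 reads under each name. It has no reference sequence, so an overlap on opposite strands could not be checked for it. Opposite-strand names count as pairs of their own here, and the share was 57.9% without the later ones. Without names at several places it was 57.0%.

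Within a pair, 1 arm usually held nearly all reads. The median share of the more abundant arm was 96.4%. It was over 90% in 161 pairs, over 99% in 73, and under 80% in only 46. Over all reads of these pairs, 94.8% came from the more abundant arm, and 98.0% without miR-21. The median was 98.6% for the 73 pairs with at least 10000 reads, 93.8% for the 61 pairs with at least 1000 but under 10000, and 94.97% for the remaining pairs. It differed little by the leading arm, at 96.7% where the 5p arm led and 96.0% where the 3p arm led. Pairs with an arm at several places are included, and which arm leads in them is uncertain. In some of them that arm had few reads. Such were miR-24, with 1999 reads of the 5p arm and 20 of the 3p arm, and miR-125b, with 593 and 8109. miR-30c had 8 and 530, and miR-26a had 59 and 259. In miR-16, by contrast, the 5p arm is at 2 places and led, with 226727 reads against 1666.

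The pairs with the most reads were mostly one-sided, with 1 exception. miR-21 had 2864394 reads of the 5p arm and 520495 of the 3p arm, so that 84.6% were 5p. miR-191 had 461 reads of the 3p arm beside 1991607 of the 5p arm, miR-182 had 26 beside 622484 and miR-10b had 64 beside 546401. On the other side, the 3p arm led in miR-27b (427663 against 579), miR-222 (290306 against 535) and miR-22 (282856 against 275). miR-100 and miR-31 kept more of the minor arm, with 14799 and 11283 reads of the 3p arm. In 12 pairs both arms were among the 100 most abundant names. Among them were miR-141, with 15666 reads of the 5p arm beside 152384, miR-221, with 11263 beside 244288, and miR-1307, with 67112 reads of the 5p arm and 21219 of the 3p arm.

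In 18 pairs with at least 1000 reads the more abundant arm held under 80%, and the 10 most balanced had 1573 to 32897 reads per pair. miR-324 had 1868 reads of the 5p arm and 1555 of the 3p arm, or 54.6% from the 5p arm (52.9 to 56.2). miR-106b, from the MCM7 cluster, had 10656 and 7756. miR-423 had 14186 and 18184, and the names miR-3184-3p and miR-3184-5p on the opposite strand hold equal counts at the isoforms they share with it. miR-128 (2003 and 1352) and miR-7 (1350 and 2051) were also among the 10, but an arm of each is at several places, so that the balance of both is uncertain. miR-374a (2899 and 5644) and miR-455 (1853 and 771) followed. The last were miR-374b, with 72.8% from the 5p arm, and its opposite-strand name miR-374c, with 27.1%.

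The first base of the mature sequence was read next. Argonaute proteins are known to hold the first base of a guide in a pocket that favours U and A. The values below cover the 12895459 reads (88.7%) whose name has a reference sequence, which leaves out miR-10b-5p, miR-21-3p and miR-30d-5p among the 20 most abundant. U was the first base of 61.7% of these reads, C of 22.3%, A of 15.5% and G of 0.426%. Counted by miRNA, U was first in 150 of the 354 miRNAs with a sequence and at least 100 reads (42.4%, 37.3 to 47.6) and G in 27. The share of U was nearly the same, 41.9%, in miRNAs with a sequence and 1 to 99 reads. Over the same reads with a sequence, U came first in 64.9% of those of 5p names and 52.5% of those of 3p names. Over all 2370 names of the reference, the shares were 36.8% for U and 13.8% for G. miR-191-5p starts with C and miR-21-5p with U, as their sequences above show, and both weigh on the share by reads.

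Within pairs, the first base differed between the arms. In 175 pairs with a sequence for both arms, the more abundant arm started with U in 97 (55.4%, 48.0 to 62.6) and the less abundant arm in 39 (22.3%, 16.8 to 29.0). C was first in 30 of the more abundant and 62 of the less abundant arms. In 90 pairs only 1 arm started with U, and it was the more abundant arm in 74 of them, or 82.2% (73.1 to 88.8).

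Starts were precise. Of all reads, 95.3% started at the annotated base, 3.53% started 1 nt downstream, 0.589% started 1 nt upstream and all other offsets were rarer. The share at the annotated start was 95.2% for 5p names and 96.3% for 3p names. Single miRNAs varied more: over 397 miRNAs with at least 100 reads the median share was 96.8%, with quartiles at 78.5% and 99.2%, and in 52 of them another start was the most frequent. Of the 182 miRNAs with at least 1000 reads, 66 had at least 99% of their reads at the annotated start and 12 had another main start.

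Reads with another start came from few miRNAs. Of the 687894 such reads, 194894 were miR-10a-5p reads that began 1 nt downstream, which was 19.7% of that miRNA. They were followed by miR-10b-5p (62490 reads, 11.4%), miR-183-5p (61744, 43.8%) and miR-191-5p (58834, 2.95%), each also 1 nt downstream, and by miR-103b, whose 18564 reads at 2 nt downstream stand at positions where miR-103a-3p on the opposite strand has equal counts. These 5 made 57.6% of all shifted reads. If it were counted as a miRNA of its own, the shifted form of miR-10a-5p would rank 17. A shift of the start moves the seed by 1 base, as shown for these miRNAs with the seed of the shifted form in capitals.
miR-10a-5p from the annotated start: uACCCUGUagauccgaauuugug
miR-10a-5p from 1 nt downstream: aCCCUGUAgauccgaauuugug
miR-183-5p from the annotated start: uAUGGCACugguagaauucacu
miR-183-5p from 1 nt downstream: aUGGCACUgguagaauucacu
miR-191-5p from the annotated start: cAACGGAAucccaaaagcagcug
miR-191-5p from 1 nt downstream: aACGGAAUcccaaaagcagcug

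The end of miR-10a-5p moved with its start. Reads from the annotated start mostly ended 1 nt short of the annotated end, 495839 against 223564 at the annotated end. Reads from 1 nt downstream mostly ended at the annotated end, 131719 against 44684 at 1 nt short. The most frequent form of each start was thus 22 nt long. miR-183-5p, of the cluster that miR-182-5p leads, had 55.8% of its reads at the annotated start, whereas miR-182-5p had 99.3%.

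In several miRNAs of lower abundance the main start was not the annotated one. miR-324-3p had 0.257% of its 1555 reads at the annotated start and 81.0% at 1 nt downstream. miR-181c-3p (2169 reads) had 1.06% and 98.6% at these starts, and miR-140-3p (12337 reads), a miRNA of the WWP2 intron, had 26.2% and 69.2%. Upstream starts led in miR-577 (88.6% of 11648 reads at 1 nt upstream), miR-16-2-3p (84.1% of 1637), miR-24-2-5p (81.5% of 1830) and miR-148b-5p (76.9% of 3891). miR-425-3p was split, with 50.6% at 1 nt upstream and 40.5% at the annotated start. miR-126-3p had 47.0% at 1 nt downstream and 45.2% at the annotated start. miR-106b-3p had 55.1% at the annotated start and 42.3% at 2 nt upstream. The low shares of miR-103b, miR-203b-5p and miR-3184-5p belong to names that share equal counts with a name on the opposite strand. The forms with the most reads are printed for miRNAs whose start differs from the annotation, with the seed of that form in capitals and the letters taken from the RefSeq hairpin.
miR-140-3p from 1 nt downstream, 7321 reads: aCCACAGGguagaaccacggac
miR-577 from 1 nt upstream, 9638 reads: gUAGAUAAaauauugguaccug
miR-181c-3p from 1 nt downstream, 1775 reads: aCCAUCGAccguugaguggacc
miR-148b-5p from 1 nt upstream, 2598 reads: gAAGUUCUguuauacacucaggcu
miR-24-2-5p from 1 nt upstream, 1126 reads: gUGCCUACugagcugaaacacagu

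Ends were far less precise than starts. Of all reads, 53.3% ended at the annotated base, 27.9% ended beyond it and 18.8% ended short of it. By distance, 17.04% ended 1 nt beyond, 9.18% 2 nt beyond and 1.44% 3 nt beyond, against 15.1% at 1 nt short and 2.98% at 2 nt short. Both annotated ends were found together in 51.0% of reads, and 44.3% had the annotated start with another end. The share at the annotated end was close for 5p names (53.2%) and 3p names (53.8%). In 5p names 3169059 reads ended beyond and 1771297 short (16.8%), and in 3p names 882131 ended beyond and 886732 short (23.2%). Single miRNAs weighed on these values in both arms. Without miR-21-5p, 59.9% of 5p reads ended at the annotated base, 18.6% beyond and 21.5% short. Without miR-222-3p, 58.0% of 3p reads ended at the annotated base, 16.9% beyond and 25.1% short.

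The ends of a miRNA were mostly gathered at 1 or 2 positions, and which position it was differed between miRNAs. miR-21-5p was split, with 36.0% of its reads at 1 nt beyond, 35.3% at the annotated end and 24.5% at 2 nt beyond. miR-191-5p had 97.3% of its reads at the annotated end and miR-22-3p 97.5%. In miR-10a-5p, miR-10b-5p, miR-27b-3p and miR-221-3p the main end was 1 nt short, with 55.1%, 76.1%, 59.7% and 48.1% of reads. miR-31-5p had 83.7% and miR-148a-3p 54.4% at 1 nt beyond. miR-30e-5p and miR-30d-5p, of the same family, had 95.7% and 84.4% at 2 nt beyond. miR-222-3p had 67.9% at 3 nt beyond and 1.52% at the annotated end, although miR-221-3p of the same seed and cluster mostly ended short. The annotated sequence of miR-222-3p is 21 nt and that of miR-221-3p is 23 nt, so that the main forms, of 24 and 22 nt, differ in length in the opposite direction.

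Forms that reach beyond the annotated end are shown for 5 miRNAs, the main form of each and a further one of miR-21-5p, with the bases beyond that end in capitals. The form of miR-21-5p at the annotated end is printed above. The letters come from the hairpin. Mismatches at the 3p end of reads were accepted in the alignment, so that a base added after cleavage cannot be told apart from one encoded in the hairpin.
miR-21-5p, 1 nt beyond, 1025217 reads: uagcuuaucagacugauguugaC
miR-21-5p, 2 nt beyond, 693402 reads: uagcuuaucagacugauguugaCU
miR-31-5p, 1 nt beyond, 266688 reads: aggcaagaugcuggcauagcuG
miR-222-3p, 3 nt beyond, 194386 reads: agcuacaucuggcuacuggguCUC
miR-30e-5p, 2 nt beyond, 166766 reads: uguaaacauccuugacuggaagCU
miR-148a-3p, 1 nt beyond, 145089 reads: ucagugcacuacagaacuuuguC

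**Figure D2:**
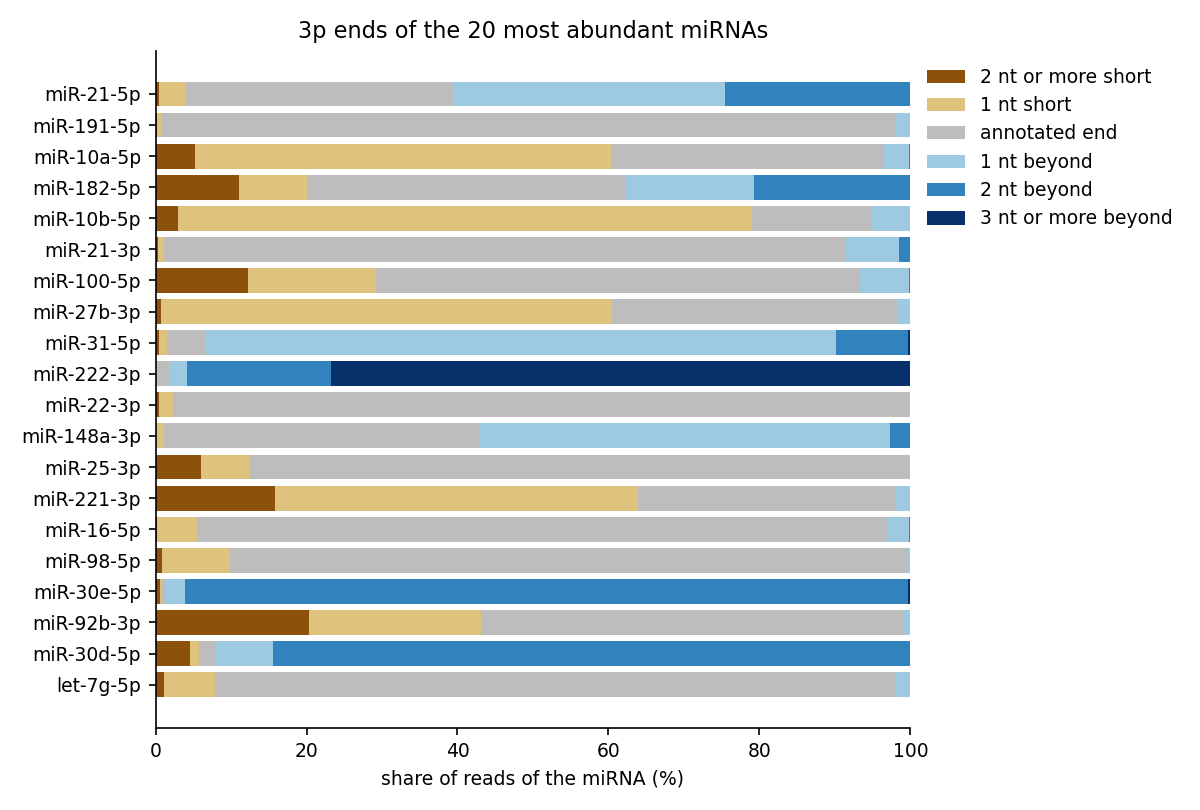
Share of reads of each of the 20 most abundant miRNAs, in percent, by the position of the 3p end relative to the annotated end, from 2 nt or more short to 3 nt or more beyond. miR-191-5p and miR-22-3p are almost wholly at the annotated end, and miR-30e-5p, miR-30d-5p and miR-222-3p are almost wholly beyond it.

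Of the 87 miRNAs with at least 10000 reads, 33 had another main end, beyond the annotated one in 21 and short of it in 12, and 19 had at least 90% of reads at the annotated end. The lowest shares outside antisense names and names at several places were those of miR-140-3p (0.486%, with 80.4% at 2 nt beyond), miR-30e-5p (0.503%) and miR-221-5p (0.559%, with its main end 4 nt beyond). miR-589-5p, with 0.844% at the annotated end, was split between 43.7% at 1 nt short and 47.0% at 1 nt beyond. miR-103a-3p and miR-320b, both at 2 places, had no read at the annotated end and 95.5% and nearly all of their reads at 2 nt short. miR-3184-5p and miR-203b-5p share equal counts with opposite-strand names, and for these the offsets are mirrored. By length, 38.1% of reads with a reference sequence were 22 nt, 33.1% were 23 nt and 11.9% were 24 nt.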

How the data were processed

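Small RNA libraries were made from total RNA of HCT116 cells with the TruSeq Small RNA kit. The authors removed adapters with cutadapt, filtered reads by quality and by a length of 18 to 26 nt, aligned them to hg38 with Bowtie2, kept unambiguous reads with mismatches only at the 3p end, and assigned them to miRBase loci. The deposited values are raw counts of reads per isoform, without normalization. The sign of the offsets, stored by the authors as whole-number scores within 5 nt of the annotated ends, is not stated. Counted inward at both ends, they left 0 of 6798 isoforms outside 18 to 26 nt, against 420 to 870 under other conventions, and inward counting was used.

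The library with the empty plasmid was used alone (14544475 reads), and the other 3 were not analysed here. A count of 3 reads is the floor, and pairs of arms needed at least 100 reads. Named miRNAs are the 20 with the most reads, the 10 most balanced and 10 largest pairs and the 10 lowest shares at the annotated start with the 5 largest shifted starts (at least 1000 reads), the 10 lowest shares at the annotated end (at least 10000 reads), and marker and family lists. Starts beyond opposite-strand names, other pairs with both arms abundant, and the clusters were added after the values were seen. Members, lists and rules were chosen with earlier results of these data known. Genome places came from an exact search of RefSeq mature sequences on both strands. A sequence was found for 1460 names, with 88.7% of the reads, and 55 others were placed by their other arm. Python 3.11.15, pandas 2.3.3, numpy 2.4.6, scipy 1.17.1 and matplotlib 3.10.9 were used, and the steps were tested on simulated data. Alternatives were other minimums, weightings, reference ends and pairings, and 5 settings added after the data were seen.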

Additional observations from a re-analysis of the deposited data

Results flagged for a closer look

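The library of cells with the empty plasmid also held reads under names of plasmid-borne variants, a part of the table that the report does not use. Of 14 such names 9 had a read, 41 reads in all or 0.000282% of the 14544516 reads of the library. The reads of 2 names exceeded the 3 reads that a count of 0 allows: miR-30a-seedW56-5p had 25 reads and let-7d-seedW56-5p had 6. The source of these reads was not tested.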

How the results depend on the processing

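No paired analysis was possible because 1 library was used. Of 51 alternatives over 7 results, 13 stayed within 1.5 times a count or within the interval of a share. The other 38 moved beyond it, 16 of them by less than 1 percentage point. The number of miRNAs was 1335 with no minimum and 397 with at least 100 reads. The share of the 10 leading miRNAs was 68.2% over reads with both annotated ends, 55.8% without miR-21-5p and 62.6% without miRNAs under 100 reads. By seed families it was 75.6% of the reads with a sequence and 67.0% of all reads. The share of the more abundant arm was 94.9% in pairs with at least 1000 reads, 90.2% as a mean over pairs, 98.0% without miR-21 and 94.8% with hairpin numbers kept. Reads at the annotated start made 81.7% as a mean over miRNAs, 94.3% without miR-21-5p, 95.7% from the most frequent start and 95.4% with both ends within 2 nt. For ends these values were 48.1%, 57.7%, 68.1% and 54.7%. Among names with a sequence, U came first in 42.4% of miRNAs, and in 59.0% of reads by the read's own start.

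Settings chosen after the data were seen follow, and the values are for the 10 leading miRNAs, the arm, starts and ends in that order. With only names that have a reference sequence they were 66.5%, 98.3%, 95.5% and 54.8%. This setting leaves out miR-21-3p and miR-10b-5p. Without names at several places, and with those lacking a sequence kept, they were 64.5%, 94.7%, 95.3% and 52.97%. With only names at 1 known place, which makes both exclusions, they were 68.9%, 98.3%, 95.5% and 54.5%, and U came first in 60.9%. Without the later antisense names they were 62.8%, 94.9% and 95.7%, ends stayed within the interval, and U came first in 61.6%. The share of pairs with the 5p arm ahead stayed within its interval in all 7 alternatives. It was 51.5% with a minimum of 10 reads (46.6 to 56.3) and 58.2% with a minimum of 1000 (49.7 to 66.2). Both of these intervals included 50%, but they treat pairs as separate draws and are not a test.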

Other observations

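Names numbered 1000 and above, given late in the numbering of miRNAs, made 967 of the 1630 names but 1.34% of the reads. Of these, 15 had at least 1000 reads, against 167 of the 663 names numbered below 1000. Among the 15 are miR-3184-5p (18711 reads) and miR-3184-3p (14186), whose counts equal those of miR-423 on the opposite strand at the isoforms they share.

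Several names at more than 1 genome place held nearly equal reads at neighbouring ends. let-7f-5p had 13040 reads in its most frequent isoform and 12859 in the next. The same pair of values was 1928 and 1895 for miR-196a-5p, 1098 and 1084 for miR-101-3p, 770 and 761 for miR-181b-5p, 663 and 661 for miR-128-3p, and 272 and 271 for miR-125b-5p. Among names with at least 100 reads, the second isoform had at least 90% of the reads of the first in 9 of 26 names at several places and in 19 of 328 names at 1 place. The cause of this was not tested.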
